A study of Homo sapiens with 6 samples.

Results

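The genes described here are 36 genes of the amino acid response that is governed by the transcription factor ATF4, given by their symbols and read from every probe set of the array that the platform annotation gives to 1 of these symbols alone. They held 77 of the 54613 probe sets other than controls. Of these, 68 probe sets of 34 genes were bright enough to be tested, out of 27307 tested probe sets and 12810 measured genes in all. The members fall into 6 transcription factors, 7 amino acid transporters, 11 enzymes of amino acid and one-carbon synthesis, 7 cytosolic tRNA synthetases and 5 further ATF4 targets.

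Expression was measured in K562, an established human cell line from a chronic myelogenous leukaemia, on Affymetrix U133 Plus 2.0 arrays. The 3 control wells received DMSO, the vehicle, and the other 3 received 25 nM CA, spelled out in the series title as cortistatin A, a compound that blocks CDK8 and CDK19, the kinases of the Mediator complex. Both exposures lasted 3 h, and all wells held the same line and medium. The wells were plated in triplicate, so p values measure the spread between wells of this line.

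In the amino acid response, kinases that sense uncharged tRNA, misfolded protein, haem deficiency or viral RNA phosphorylate the initiation factor eIF2. This lowers general protein synthesis and lets the ATF4 mRNA be translated through its upstream open reading frames, so the level of the ATF4 transcript is not a measure of ATF4 protein. ATF4 pairs with C/EBP family partners and induces genes for amino acid import, for the synthesis of serine, asparagine and proline, and for the charging of tRNA, and with prolonged stress it induces DDIT3, TRIB3 and CHAC1.

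The DNA element that ATF4 binds with a C/EBP partner is read here as TGATGNAA, on either strand. It was looked for in RefSeq promoter windows (GRCh38.p14) of 300 bases, from 250 before to 50 after a transcription start. Of the 36 members 30 had a window, and 12 of these held the element in at least 1 window, against 4.46% of the 27305 genes with a window. The members were put together as ATF4 targets, so this share describes the choice of members. The palindromic cAMP response element TGACGTCA was in 0 of the 30, and in 2.25% of all genes. The 9 members whose element starts before a listed transcription start are shown because they hold the letters through which ATF4 could reach the genes measured below. Each line is 30 bases in the direction of transcription, with the element or its reverse complement in capitals.
ATF3 (chr1:212565205-212565234, plus strand): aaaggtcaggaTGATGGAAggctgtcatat
CEBPG (chr19:33374060-33374089, plus strand): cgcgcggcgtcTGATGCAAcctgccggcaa
SLC1A4 (chr2:64989381-64989410, plus strand): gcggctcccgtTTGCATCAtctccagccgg
SLC1A5 (chr19:46784893-46784922, minus strand): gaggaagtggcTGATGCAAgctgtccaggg
ASNS (chr7:97872458-97872487, minus strand): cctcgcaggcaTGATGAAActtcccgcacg
AARS1 (chr16:70289675-70289704, minus strand): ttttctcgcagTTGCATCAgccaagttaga
GARS1 (chr7:30594834-30594863, plus strand): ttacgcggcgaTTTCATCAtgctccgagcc
CARS1 (chr11:3057407-3057436, minus strand): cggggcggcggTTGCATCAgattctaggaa
CHAC1 (chr15:40953251-40953280, plus strand): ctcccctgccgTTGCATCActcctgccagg

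The element began 68 bases before the start of ASNS and 209 bases before that of CHAC1. SLC3A2, SLC7A1 and NARS1 held it after the start. The windows of ATF5 and DDIT3 held no such letters, which says nothing about sites elsewhere.

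The arrays correlated with each other at 0.997 to 0.998. CA array 1 stood apart from the other 5 on the second principal component (24.4% of the variance), at -19.0 against 0.338 to 7.20. The 3' minus 5' log2 difference of actin, a measure of how far labelling reached into transcripts, was 1.40 to 1.49 on the DMSO arrays and 1.14 to 1.31 on the CA arrays (exact 2-sided permutation p = 0.1, the smallest that 3 against 3 arrays allow; adjusted p = 0.15 over 6 controls). The mean difference in CA was lower by 0.24 for actin, and CA minus DMSO was -0.03 for GAPDH and -0.24, -0.26, -0.10 and -0.06 for the added controls dap, thr, phe and lys. Of 12 erythroid markers listed for this line, 8 had a probe set of their own, and all 8 were above the filter, from EPOR at 6.08 to HBE1 at 13.27. None was called by limma, but 3 of the 8 (37.5%, against 6.14% of all measured genes) had all CA arrays above all DMSO arrays. These were HEMGN (log2 change 0.34, adjusted p = 0.0817), TAL1 (0.22, adjusted p = 0.232) and TFRC (0.12, adjusted p = 0.442). The same 3 (37.5%) were called where the prior variance of the test follows the mean signal, against 1.23% of all measured genes. For the other markers the groups overlapped, with changes of 0.06 for EPOR, 0.05 for GATA1, -0.007 for HBE1, -0.01 for HBZ and -0.06 for KLF1. The summed log2 signal of the 8 was 14.35 to 14.36 in DMSO and 14.38 to 14.41 in CA, though HBE1, the brightest, was not higher in CA. The part of these shifts in the changes below was not tested. Markers of other cells were partly above the filter: 2 of 5 of T cells, led by CD3D (9.07), 3 of 4 with a probe set of B cells, led by CD79A (4.70), 2 of 5 of monocytes and granulocytes, led by ITGAM (4.06), and 5 of 5 of stroma and epithelium, led by EPCAM (10.46). Their summed signals overlapped between the groups, and of those above the filter only CD79A had groups that did not overlap (log2 change 0.15, adjusted p = 0.504). Among those below it were CD14, MPO and ELANE of myeloid cells, CD2, CD8A and LCK of T cells and MS4A1 of B cells.

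None of the 34 measured members passed the test. CA was compared with DMSO by limma's moderated test over all 27307 probe sets, with Benjamini-Hochberg adjustment and a threshold of 0.05. At that threshold 0.0859% of measured genes were called, and the members' adjusted p lay between 0.116 and 0.990. At an unadjusted p under 0.05 there were 3 members, ATF5, DDIT3 and SLC7A11, all with lower values in CA, which is 8.82% of 34 against 8.61% of all measured genes. The median log2 change of the members was -0.02, and that of all measured genes was -0.01. Fitted changes ran from -0.34 for DDIT3 to 0.15 for SLC3A2, with 13 above and 21 below 0.

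**Figure D1:**
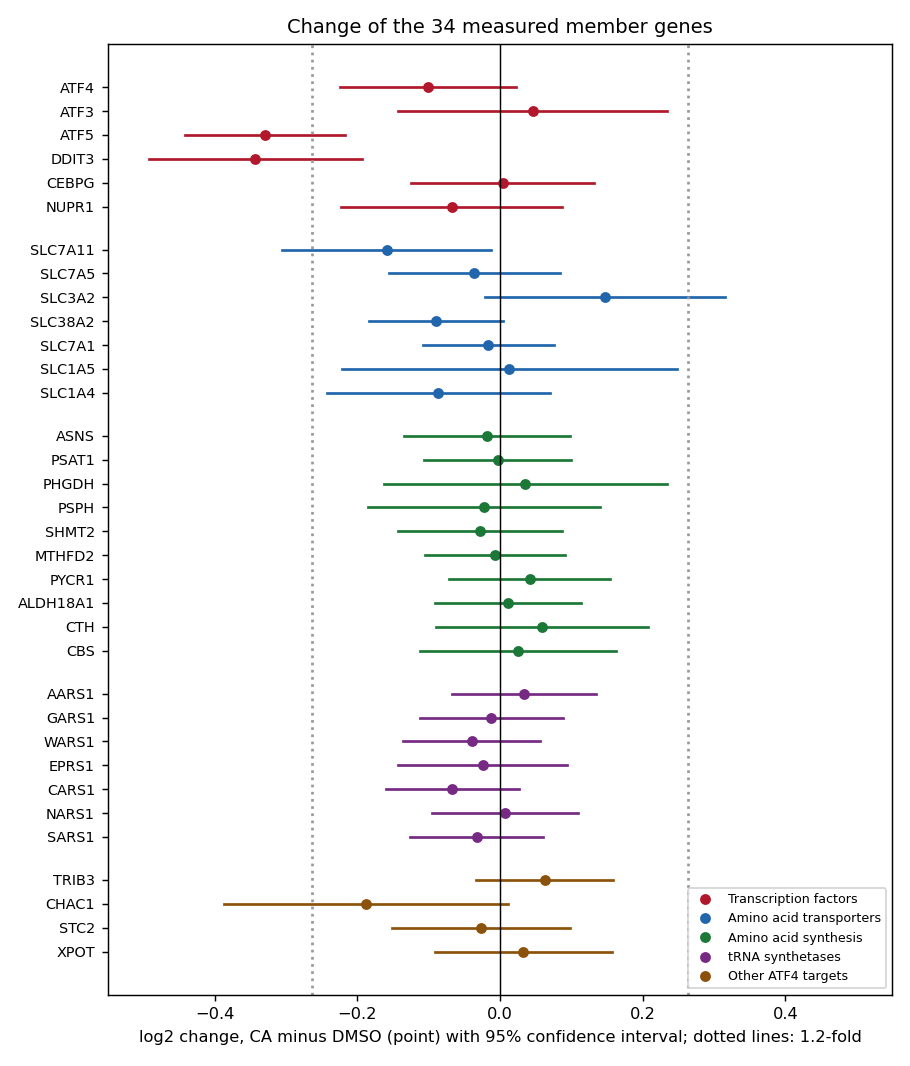
Log2 change (CA minus DMSO) of each of the 34 measured members, one row per gene, coloured by list; bars are 95% confidence intervals from limma and dotted lines mark a 1.2-fold change. ATF5 at -0.33 and DDIT3 at -0.34 lie apart from the other members, and the tRNA synthetases lie between -0.07 and 0.03.

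For 29 of the 34 members the 95% confidence interval lay inside a 1.2-fold change in either direction, or 85.3%, against 66.4% of all measured genes. The median standard error (SE) was 0.05 for the members and 0.06 for all genes. The exceptions were ATF5, DDIT3, SLC7A11 and CHAC1, whose intervals reached lower, and SLC3A2, whose interval reached higher. Values of RMA are relative to the other transcripts of the array, so a change shared by most transcripts would not show.

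Of the transcription factors, ATF5 and DDIT3 stood lowest in CA. ATF5, a bZIP factor related to ATF4 and like it controlled by upstream open reading frames, had RMA log2 signals of 6.85, 6.93 and 6.88 on the DMSO arrays and 6.59, 6.51 and 6.58 on the CA arrays. All CA arrays lay below all DMSO arrays. The log2 change was -0.33 (95% confidence interval -0.44 to -0.22), or 1.26-fold lower, at a limma adjusted p of 0.116. It ranked 34 of 12810 genes by p.

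DDIT3 encodes CHOP, the factor that ATF4 induces under lasting stress and that can promote cell death. Its signals were 7.72, 7.71 and 7.60 in DMSO and 7.43, 7.25 and 7.32 in CA, again without overlap. The log2 change was -0.34 (-0.49 to -0.19), or 1.27-fold lower, at a limma adjusted p of 0.193, which ranked 73 of 12810 by p.

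ATF5 and DDIT3 passed the threshold where the prior variance follows the mean signal, at adjusted p of 0.0100 and 0.00757 (limma), and were then 2 of the 34 members called (5.88%, against 0.492% of all measured genes called as lower by that fit). They also passed with a filter at the 75th percentile of signal, at limma adjusted p of 0.0120 and 0.0367, as 2 of the 31 members bright enough for it (6.45%, against 0.496% of the 7663 genes called as lower). A 3' to 5' covariate, added after the data were seen, was the mean 3' minus 5' difference of actin, dap and thr. Each of these differences was lower on every CA array than on any DMSO array. A fit with this covariate therefore cannot separate labelling from CA, and 0 of all measured genes were called in it. The log2 changes of ATF5 and DDIT3 in it were -0.28 (limma adjusted p = 0.853) and -0.36 (adjusted p = 0.863). With each array left out in turn ATF5 kept a change of -0.35 to -0.30 and DDIT3 one of -0.39 to -0.30, with adjusted p no lower than 0.219 and 0.226.

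**Figure D2:**
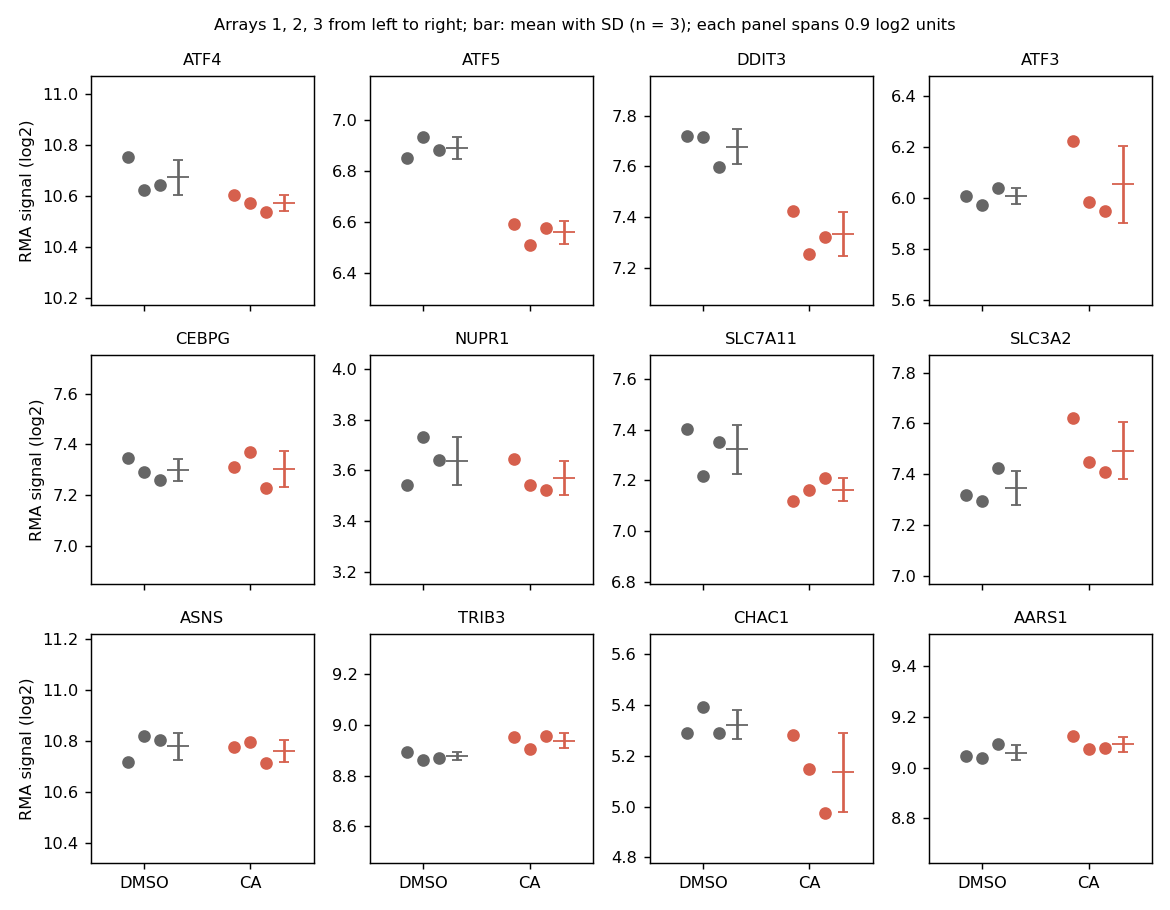
RMA log2 signal of 12 members on each array, DMSO in grey and CA in red, arrays 1 to 3 from left to right in each group, with the group mean and SD (n = 3); every panel spans the same range. ATF5 and DDIT3 separate by more than the spread of either group, and for ATF3 and SLC3A2 CA array 1 is the highest point.

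ATF4 itself had signals of 10.75, 10.62 and 10.64 in DMSO and 10.60, 10.57 and 10.54 in CA. The CA arrays lay below the DMSO arrays by a small step, and the log2 change was -0.10 (-0.22 to 0.02, adjusted p = 0.613). It was -0.06 without DMSO array 1 and -0.22 with the 3' to 5' covariate. ATF3, a stress-induced repressor of the same family, had 6.01, 5.97 and 6.04 in DMSO and 6.23, 5.99 and 5.95 in CA. Its groups overlapped, with CA array 1 the highest, and the change was 0.05 (-0.14 to 0.23). CEBPG, a dimerisation partner of ATF4, was at 7.30 ± 0.04 in DMSO and 7.30 ± 0.07 in CA (SD, n = 3). NUPR1, a small stress-induced chromatin protein, was near the filter of 3.49, at 3.64 ± 0.10 and 3.57 ± 0.07 (SD, n = 3). The median change of the 6 factors was -0.08, and -0.05 over the 4 that can be read from probe sets not marked as shared, ATF5 not among them.

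The amino acid transporters gave 0 calls, with a median log2 change of -0.04. SLC7A11, the cystine importer xCT that supplies cysteine for glutathione, had 7.40, 7.22 and 7.35 in DMSO and 7.12, 7.16 and 7.21 in CA. The highest CA array fell just under the lowest DMSO array, and the log2 change was -0.16 (-0.31 to -0.01, unadjusted p = 0.0368 and adjusted p = 0.496 by limma). The unadjusted p stayed under 0.05 without the second DMSO array or the third CA array, and was 0.0796 to 0.119 with any of the other 4 left out. SLC3A2, the heavy chain that carries SLC7A11 and SLC7A5 to the cell surface, had the highest fitted value, 0.15 (-0.02 to 0.32, adjusted p = 0.590). Its signals were 7.32, 7.30 and 7.42 in DMSO and 7.62, 7.45 and 7.41 in CA, so the groups overlapped and CA array 1 was again the highest. Without that array its change was 0.08. With the 3' to 5' covariate, which cannot be separated from CA, the direction turned, to -0.15 (adjusted p = 0.947 by limma).

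The other transporters differed less. SLC38A2, the SNAT2 carrier of small neutral amino acids, had 11.52, 11.48 and 11.49 in DMSO against 11.42, 11.39 and 11.41 in CA, a log2 change of -0.09 (-0.18 to 0.004, adjusted p = 0.553). The groups did not overlap, at a spread of 0.02 within each (SD, n = 3). SLC7A5, the leucine carrier LAT1, changed by -0.04 (-0.16 to 0.08) and SLC7A1, the arginine and lysine carrier, by -0.02 (-0.11 to 0.08). SLC1A5, the glutamine carrier ASCT2, had 0.01 with a wider interval of -0.22 to 0.25, and SLC1A4, a carrier of alanine, serine and cysteine, had -0.09 (-0.24 to 0.07).

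The enzymes of amino acid synthesis had a median log2 change of 0.00377. Of 11 listed 10 were measured. On the brightest probe set of each, 0 were called, 0 had an unadjusted p under 0.05, and for 0 of them did the groups separate. On dimmer probe sets the groups separated for PSAT1 (0.30, CA above) and CBS (-0.12, CA below). Another probe set of CBS had 0.16, with overlapping groups. ASNS, the asparagine synthetase whose element is printed above, had signals of 10.72, 10.82 and 10.80 in DMSO and 10.78, 10.79 and 10.71 in CA. The CA arrays lay within the range of the DMSO arrays but for the lowest, and the log2 change was -0.02 (-0.13 to 0.10).

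Of the serine pathway, PHGDH, which opens it, had a log2 change of 0.04 (-0.16 to 0.23). PSAT1, the next enzyme, had -0.003 (-0.11 to 0.10), and PSPH, the last, had -0.02 (-0.19 to 0.14). The mitochondrial one-carbon enzymes SHMT2 and MTHFD2 had -0.03 (-0.14 to 0.09) and -0.01 (-0.10 to 0.09). ALDH18A1 and PYCR1, the first and last steps of proline synthesis from glutamate, had 0.01 and 0.04, and the transsulfuration enzymes CBS and CTH, which make cysteine, had 0.02 and 0.06. ALDH1L2, a mitochondrial folate enzyme, was under the filter on all 3 of its probe sets, with single values of 1.70 to 3.46.

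The tRNA synthetases had 7 of 7 measured, 0 called and log2 changes from -0.07 to 0.03 around a median of -0.02. Their intervals together spanned -0.16 to 0.13. CARS1, which charges cysteine tRNA, had 9.78, 9.77 and 9.81 in DMSO and 9.73, 9.70 and 9.73 in CA. The arrays did not overlap, and the log2 change was -0.07 (-0.16 to 0.03, adjusted p = 0.668). WARS1 (-0.04) and SARS1 (-0.03), for tryptophan and serine, also had groups that did not overlap. AARS1 had 0.03, NARS1 0.01, GARS1 -0.01 and EPRS1 -0.02, and their groups overlapped. Without CA array 1 the list median was 0.001.

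Among the 5 further targets, CHAC1, which degrades glutathione, had 5.29, 5.39 and 5.29 in DMSO and 5.28, 5.15 and 4.97 in CA. CA array 1 lay next to the DMSO arrays and CA array 3 well below them. The log2 change was -0.19 (-0.39 to 0.01, adjusted p = 0.557), and -0.26 without CA array 1 (adjusted p = 0.348, limma). It was -0.11 without CA array 3 (adjusted p = 0.730) and -0.42 with the 3' to 5' covariate (adjusted p = 0.864). TRIB3, the pseudokinase that restrains ATF4 and DDIT3, had 8.89, 8.86 and 8.87 in DMSO and 8.95, 8.90 and 8.96 in CA. It was the only measured member whose CA arrays all lay above the DMSO arrays, at 0.06 (-0.03 to 0.16, adjusted p = 0.701). XPOT, the exporter of tRNA from the nucleus, had 0.03 and STC2, a secreted glycoprotein, -0.03. VLDLR, a lipoprotein receptor, was under the filter, at 1.63 to 2.00.

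In all, CA arrays lay below all DMSO arrays for 9 of 34 members (26.5%, against 9.95% of measured genes) and above them for 1 (2.94%, against 6.14%). The 9 were ATF4, ATF5, DDIT3, SLC7A11, SLC38A2, WARS1, CARS1, SARS1 and CHAC1. The 3 synthetases among them differed by -0.03 to -0.07. For ATF5, SLC7A11, SLC38A2, CARS1 and SARS1 the groups overlapped on every other tested probe set. On the dimmer probe set of WARS1 all CA arrays lay above, at 0.14. Over tested member probe sets, all CA arrays lay below for 11 of 68 (16.2%, against 8.52% of all tested). They lay above for 4 (5.88%, against 7.09%). These shares are descriptions, and no test of the members as a group was made. Scaling the arrays to the 3' probe sets of the added control RNAs would add 0.21 to every change and move the median of all genes to 0.20. On that scale ATF5 (-0.12) and DDIT3 (-0.13) kept their direction, ATF4 had 0.11, SLC7A11 0.05 and CHAC1 0.02, and SLC3A2 was called as higher at 0.36 (limma adjusted p = 0.0312). That is 1 of 34 members (2.94%), against 10.8% of all measured genes called as higher on that scale, and 19 (55.9%) had an unadjusted p under 0.05, against 51.1%. Scaling to the 5' probe sets of the same controls moved the median of all genes to 0.03. There 0 members were called, against 0.0859% of all measured genes. ATF5 and DDIT3 (5.88%) had an unadjusted p under 0.05 there, against 4.24%.

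**Figure D3:**
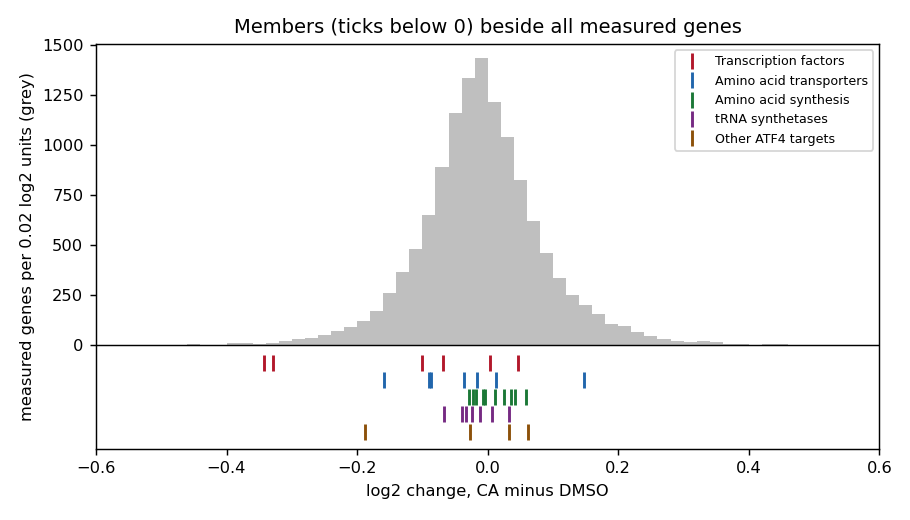
Number of measured genes per 0.02 log2 units of change (grey bars, 12810 genes, shown from -0.6 to 0.6) with a tick for each of the 34 members in rows by list under the axis. Most members lie in the bulk of all genes, and DDIT3 and ATF5 are the members farthest to the left.

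The promoter element and the change of the transcript can be set side by side. For the 12 measured members with it the median log2 change was -0.004 (range -0.19 to 0.15), and for the 17 measured members with a window without it the median was -0.02 (range -0.34 to 0.06). Of the 3 members at an unadjusted p under 0.05, ATF5 and DDIT3 had windows without the element and SLC7A11 had no window.

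Of the 21 members with more than 1 tested probe set, 9 had changes of 1 sign on all of them. ATF5 was lower on all 4 of its probe sets, but the 3 dimmer ones had log2 changes of -0.11, -0.10 and -0.08 against -0.33 on the brightest, with overlapping groups. The mean of its 4 probe sets gave -0.15 (adjusted p = 0.479). SLC7A11 was lower on all 3 (-0.16, -0.14 and -0.10), SLC38A2 on all 3 (mean of the 3, -0.05) and PSPH and SARS1 on both. TRIB3 (mean of its 2, 0.12), CTH and ALDH18A1 were higher on both. ATF3 was higher on all 3 (0.05, 0.21 and 0.01 from the brightest to the dimmest). Without CA array 1 these were -0.04, 0.16 and 0.09. DDIT3 and ATF4 were read from 1 probe set each.

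Over probe sets, 7 of 68 had an unadjusted p under 0.05, 10.3% against 9.31% of all tested probe sets. The 4 that do not represent their gene were 1 each of PSAT1, TRIB3, WARS1 and SLC1A4. The dimmer probe set of PSAT1 had 7.22, 7.27 and 7.30 in DMSO and 7.74, 7.58 and 7.38 in CA, a log2 change of 0.30 (0.08 to 0.53, adjusted p = 0.387). All CA arrays were above DMSO, with CA array 1 the highest, whereas the brighter probe set of PSAT1 showed -0.003. Without CA array 1 the dimmer one had 0.22. The dimmer probe sets of TRIB3 (0.17) and WARS1 (0.14) had the same order, CA array 1 highest, and that of SLC1A4 had -0.18. Without CA array 1 these were 0.13, 0.11 and -0.17. CA array 1 was the highest of the 6 arrays for 26 of the 68 tested member probe sets (38.2%) and for 22.7% of all tested probe sets. The 3' to 5' differences of actin (1.14), dap (2.14), thr (2.77) and phe (0.413) were also lowest on that array. That of lys was highest there, at 0.329, and that of GAPDH, at 0.629, lay within the DMSO range. The part of labelling in these probe sets was not tested.

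**Figure D4:**
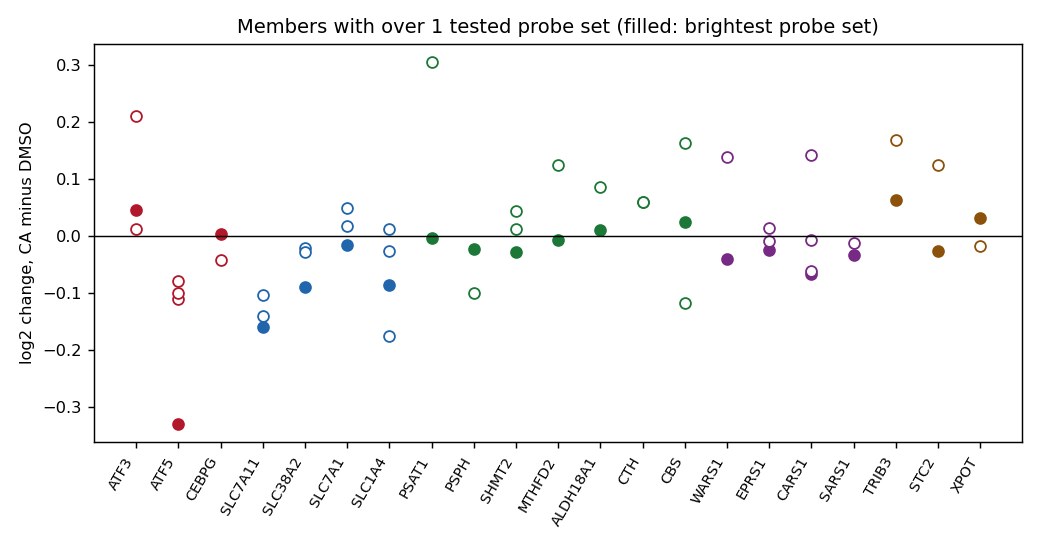
Log2 change (CA minus DMSO) of every tested probe set for the 21 members with more than 1, filled for the brightest probe set of each gene, coloured by list. The 4 probe sets of ATF5 lie below 0 with the brightest at -0.33, and the probe sets of PSAT1 lie apart, at -0.003 and 0.30.

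The other genes of the pathway were read from 7 lists written from textbook knowledge. Of 136 listed genes 113 were measured and 0 were called by limma, with 7 at an unadjusted p under 0.05 (6.19%), 5 lower and 2 higher in CA, against 8.61% of all measured genes. Where the prior variance follows the mean 1 of them, MARS2, was called, against 1.23% of all measured genes. The upstream list, the eIF2 kinases, eIF2 and eIF2B subunits and phosphatase regulators, had 17 of 17 measured, 5 with fitted values above and 12 below 0, a median of -0.03 and 1 at an unadjusted p under 0.05. That gene was EIF2B5, a subunit of the exchange factor that eIF2 phosphorylation blocks, at -0.11 (adjusted p = 0.522). EIF2AK4, the GCN2 kinase that senses uncharged tRNA, had -0.06, EIF2AK3, the PERK kinase of the endoplasmic reticulum, had -0.0001, and EIF2S2, the brightest, had -0.03. PPP1R15A, the ATF4-induced subunit that leads the phosphatase to eIF2, had 0.12 (-0.06 to 0.29).

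Of the ATF4 partners and other bZIP factors, 12 of 14 were measured, with a median of -0.05. At an unadjusted p under 0.05 (limma) there were 2 (16.7%, against 8.61% of all measured genes). JDP2, a repressor that binds AP-1 and ATF sites, had 5.44, 5.17 and 5.16 in DMSO and 4.99, 4.94 and 4.70 in CA, a log2 change of -0.38 (-0.63 to -0.12, adjusted p = 0.358). BATF2 had -0.23 (-0.34 to -0.13, adjusted p = 0.223). In both genes, and in no other of the list, all CA arrays lay below all DMSO arrays (16.7% of the list, against 9.95% of all measured genes). NFE2L2, the brightest of the list and the regulator of antioxidant genes, had 0.07.

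The mTORC1 list, 23 of 25 measured, holds the sestrins, which hold mTORC1 back when leucine is scarce or under stress. SESN2, itself an ATF4 target, had 6.74, 6.73 and 6.79 in DMSO and 6.64, 6.29 and 6.33 in CA, a log2 change of -0.33 (-0.56 to -0.11, adjusted p = 0.357). CA array 1 lay nearer to DMSO than the other CA arrays did. SESN3 had -0.21 (adjusted p = 0.395) close to the filter, and SESN1 had -0.17 (adjusted p = 0.567). DDIT4, a stress-induced inhibitor of mTORC1, had 0.18 with an interval of -0.10 to 0.46, and RHEB, the brightest, had -0.02. The list median was -0.01. SESN2 and SESN3 were the 2 of 23 at an unadjusted p under 0.05 by limma (8.70%, against 8.61% of all measured genes). They were also the 2 with all CA arrays below all DMSO arrays (8.70%, against 9.95%). SESN1 and SESN3 were named with their values known.

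For comparison with the members' own classes, the 14 measured of 19 other amino acid transporters had a median of 0.03. SLC6A6, the taurine carrier, was at 0.21 (adjusted p = 0.406) and SLC38A1, the brightest, at 0.06. The 11 measured of 16 other cytosolic synthetases and their scaffold proteins had a median of 0.02 with 0 at an unadjusted p under 0.05. LARS1 had 0.06 and KARS1, the brightest, 0.02. Mitochondrial synthetases, 15 of 17 measured, had a median of -0.003, which is also the change of IARS2, the brightest. MARS2, which charges mitochondrial methionine tRNA, had 6.38, 6.43 and 6.39 in DMSO and 6.83, 6.74 and 6.72 in CA. Its log2 change was 0.36 (0.25 to 0.47, adjusted p = 0.0943, or 0.00744 where the prior variance follows the mean, limma). The 21 measured of 28 other enzymes had a median of -0.01 and 0 at an unadjusted p under 0.05, with GCLC of glutathione synthesis at -0.09 and GLUL, glutamine synthetase, at 0.02.

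**Figure D5:**
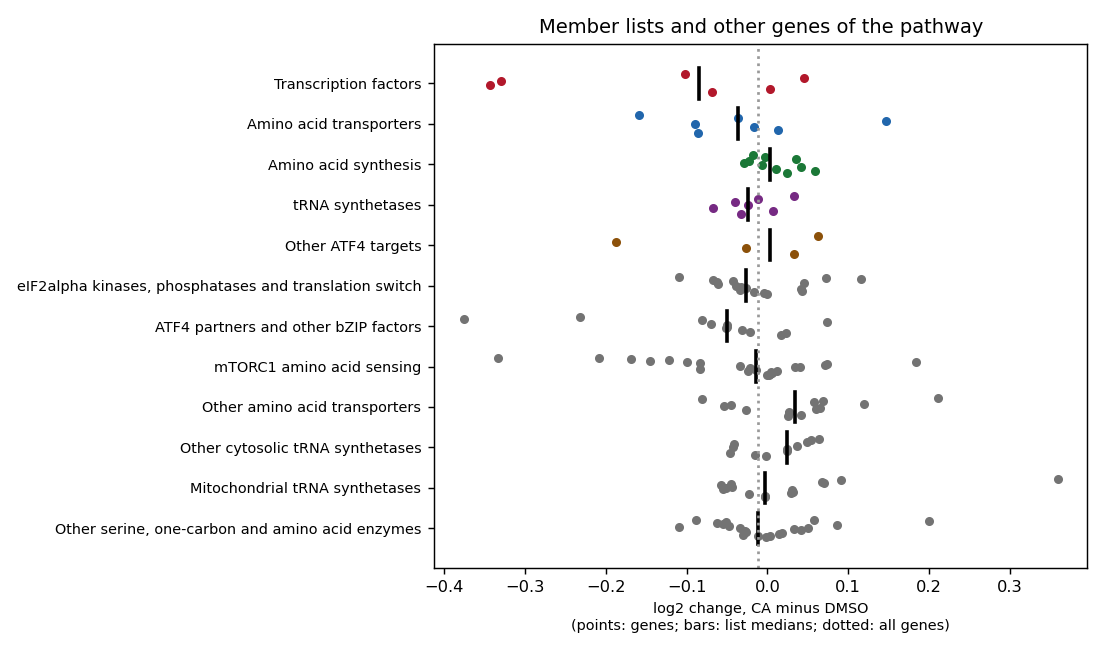
Log2 change (CA minus DMSO) of each measured gene in the 5 member lists (coloured) and the 7 other lists of the pathway (grey), with list medians as black bars and the median of all genes dotted at -0.01. List medians lie between -0.08 for the transcription factors and 0.03 for the other transporters, and single genes such as DDIT3, ATF5, JDP2 and SESN2 on the left and MARS2 on the right lie apart.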

How the data were processed

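The authors deposited 1 table of log2 RMA signals for 54675 probe sets on 6 arrays, made with RMA in the affy package per the submitters' processing notes, which name no version. RMA corrects background, equalises the distributions of the arrays and summarises each probe set. It compresses small changes of dim probe sets. Array files at the probe level were not used here, and whether RNA came by column or TRIzol is not told per sample.

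After 62 control probe sets were set aside, those whose 6-array mean reached the median of all such means, 3.49, entered the test. A gene was read from its tested probe set with the highest mean, among those with 1 symbol in the platform annotation. All 36 member symbols matched a current RefSeq gene by gene ID. The fit was lmFit and eBayes (limma 3.58.1, R 4.3.3), 2-sided, across all 27307 probe sets with no block. It was tested on simulated data whose added changes were larger than any fitted for a member. Recovery of changes as small as those of the members was therefore not tested. The number of arrays, 3 per group, limits the precision. All members are named. From each other list the text names genes called, else the one with the smallest p and the brightest. EIF2AK3, EIF2AK4, PPP1R15A, SESN1, SESN3, DDIT4, JDP2, TAL1, TFRC, EPOR, GATA1, HBZ and KLF1 were picked after their values were seen. The members and lists were chosen with earlier results of these data known.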

Additional observations from a re-analysis of the deposited data

How the results depend on the processing

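Members called numbered 0 in the fit reported, in each fit without 1 array and with the replicate block, and 2 (ATF5 and DDIT3) with the mean-dependent prior variance and with the filter at the 75th percentile. With scaling to the 3' added controls it was 1 (SLC3A2), and with scaling to the 5' added controls 0. ATF5 and DDIT3 were below 0 in all 17 and 18 alternatives that measured them. Members at an unadjusted p under 0.05 numbered 3 (8.82%, against 8.61% of all genes). Without 1 array they numbered 2 to 4 (5.88% to 11.8%, against 6.80% to 11.1% of all genes). They numbered 7 with the mean-dependent variance (20.6% of members, against 10.98% of all genes), 5 with the stricter filter (16.1% against 13.2%), with array weights (14.7% against 10.3%) and with the mean of a gene's probe sets (14.7% against 9.76%), 19 with 3' control scaling (55.9% against 51.1%) and 1 with the 3' to 5' covariate (2.94% against 5.21%). Probe sets called numbered 26, 2 to 5 without 1 array, 0 with the replicate block and with the covariate, 285 with the mean-dependent variance, 5 with no filter, 162 with the stricter filter, 3594 with 3' control scaling and 1 without shared probe sets. Of gene means 13 were called.

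List medians with 3' control scaling were 0.12 (factors), 0.17 (transporters), 0.21 (synthesis), 0.18 (synthetases) and 0.21 (other targets). With 5' control scaling they were -0.0433 (factors), 0.0451 (synthesis) and 0.0170 (synthetases). The factors had -0.0489 without shared probe sets and -0.25 with the covariate, and synthesis had 0.0385 with gene means and -0.0531 with the covariate. Synthetases had -0.00861 with centring, -0.00615 with array weights and 0.00186 with gene means, and -0.0372 to 0.00136 without 1 array, the highest without CA array 1. The causes were not tested. No shared deviation of same-numbered wells was seen (correlations -0.07 to 0.06). With so few wells per group, these correlations cannot decide whether the replicate number marked a pairing. ATF5 and DDIT3 had an adjusted p of 0.442 each with the block.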
